A study of Rattus norvegicus with 120 samples.

Results

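The genes described here are Myl7, Myl4, Sln, Bmp10, Sbk2 and Sbk3, 6 of the 30560 genes in the deposited count tables, which were followed across 60 heart libraries of ZSF1 rats. They were taken by gene symbol, because their levels varied together across these libraries and were unevenly shared between the study's 2 experiments. The members were thus selected on their CPM in these 60 hearts, so the levels in the hearts, their correlations with one another and the contrast of the experiments are given as a description with no test. The comparisons of obesity and treatment within an experiment were tested over all genes.

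ZSF1 obese rats lack a working leptin receptor and become obese, diabetic and hypertensive, and their lean relatives carry a working copy. All rats were 30 weeks old. In study A the groups were lean rats on vehicle, obese rats on vehicle and obese rats on BT2, a small molecule that inhibits the kinase of the branched-chain ketoacid dehydrogenase. In study B all rats were obese and were given vehicle, empagliflozin (an inhibitor of the kidney glucose transporter SGLT2) or BT2 with empagliflozin, so study B has no lean group. Each group had 10 heart libraries, from 10 rats per condition by the series' own description, with replicates 1 to 5 labelled plate 1 and replicates 6 to 10 labelled plate 2. The labels call the tissue heart and the series' description calls it whole heart. RNA was taken from a small piece of frozen tissue, and no label says which chamber a piece came from.

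Atrial and ventricular muscle cells build the same contractile machine from partly different parts. Myl7 and Myl4 encode the regulatory and the essential myosin light chain of atrial muscle, whose counterparts in the ventricle are Myl2 and Myl3. Sln encodes sarcolipin, a small membrane protein that inhibits the calcium pump SERCA, and in the rodent heart it is mainly an atrial gene, although skeletal muscle also makes it. Bmp10 encodes a secreted ligand of the BMP family that, in the adult heart, comes mainly from the right atrium and acts on endothelium through the receptor ALK1. Sbk2 and Sbk3 encode related kinases of the SH3-domain-binding family that are neighbours on chromosome 1 and are expressed in heart muscle, mainly in the atria.

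Because the 6 genes moved together, the 250 bases before the start site of 3 of them are shown, from RefSeq on the build GRCr8. They are the regulatory light chain, the essential light chain, whose level followed it most closely, and the ligand, which departed from it most. RefSeq windows were matched for 5 of the 6 members. The Myl7 window is chr14:84996625-84996874 on the minus strand, the Myl4 window is chr10:89975900-89976149 on the plus strand and the Bmp10 window is chr4:121429125-121429374 on the plus strand. All 3 windows lie inside the annotated span of the gene, before the start of the transcript in the table. Capitals mark letters that match one of the motifs searched.
Myl7: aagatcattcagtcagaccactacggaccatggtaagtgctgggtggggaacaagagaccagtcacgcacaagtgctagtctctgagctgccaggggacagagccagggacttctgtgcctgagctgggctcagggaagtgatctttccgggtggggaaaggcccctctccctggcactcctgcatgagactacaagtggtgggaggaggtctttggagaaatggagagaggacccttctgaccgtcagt
Myl4: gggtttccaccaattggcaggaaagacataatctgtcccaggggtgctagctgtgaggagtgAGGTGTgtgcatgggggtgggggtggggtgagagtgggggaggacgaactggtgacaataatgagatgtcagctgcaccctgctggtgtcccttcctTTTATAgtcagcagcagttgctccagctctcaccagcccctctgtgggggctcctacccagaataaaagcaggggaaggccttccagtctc
Bmp10: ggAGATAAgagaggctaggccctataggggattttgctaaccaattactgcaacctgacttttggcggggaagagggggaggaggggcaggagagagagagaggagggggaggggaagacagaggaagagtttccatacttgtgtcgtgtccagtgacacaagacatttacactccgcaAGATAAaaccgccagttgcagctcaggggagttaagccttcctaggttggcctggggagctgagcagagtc
The motifs were searched on both strands, and none overlapped another in these windows. AGGTGT, the core of the site bound by T-box factors, occurred once in the Myl4 window and is found in 11.57% of 33469 windows of all genes. TATAAA occurred in the Myl4 window on the reverse strand, where it is printed as TTTATA, and is found in 12.93% of all windows. AGATAA, known to be bound by factors of the GATA family, occurred in 2 places in the Bmp10 window and is found in 10.3% of all windows. The letters TNAAGTG (NKX2-5), AGGTCA (nuclear receptors) and the MEF2 and CArG motifs were in none of the 5 member windows, and were found in 9.893%, 14.06%, 1.679% and 1.497% of all windows. No motif was found in more than 1 of the 5 members. These are letter matches only, and the motifs were chosen after the expression values were known.

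The heart libraries held 6735300 to 23575900 counts (rounded, median 12151700), and levels are given as CPM, a gene's counts scaled to a library total of 1000000. A count of 0 allows a level of up to 0.127 to 0.445 CPM (3 counts), depending on the library, and this covers counting error only. Of the counts, 28.5% to 53.6% were from mitochondrially encoded genes. Ventricular and general heart muscle genes were high in every heart library, with a summed level of 9 ventricular genes between 16443 and 36696 CPM. Of 18 other atrial genes listed beside the 6, 17 averaged at least 1 CPM. Their median Spearman correlation with the 6 genes was 0.42, against -0.11 for the 9 ventricular genes, and 4 of the 17 reached 0.5. The 6 genes were selected on these same CPM, and the lists were chosen with earlier results known. These correlations are therefore a description and no independent check of the atrial label. In whole tissue, fewer atrial cells and less RNA per atrial cell cannot be told apart.

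Myl7, the atrial regulatory light chain, ranged from 5.89 to 3644 CPM with a median of 131 CPM. The lowest, median and highest Myl7 levels were 5.89, 89.4 and 266 CPM in lean vehicle hearts, 8.21, 87.4 and 694 CPM in obese vehicle hearts of study A, and 15.1, 80.9 and 240 CPM with BT2. They were 8.19, 275 and 3644 CPM in obese vehicle hearts of study B, 54.3, 158 and 3393 CPM with empagliflozin, and 93.9, 212 and 873 CPM with BT2 and empagliflozin. The ranges of the 6 groups all overlapped, and the medians of the 3 study A groups lay close together. The spread of Myl7 relative to its mean ranked 47th of 12242 genes, and 33.6% of the Myl7 summed over all hearts was in 2 libraries.

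Myl4, the atrial essential light chain, had lowest, median and highest levels of 2.67, 32.7 and 119 CPM in lean hearts, 3.86, 33.2 and 316 CPM in obese vehicle hearts of study A and 5.86, 31.7 and 146 CPM with BT2. In study B these were 2.46, 93.1 and 1601 CPM with vehicle, 18.6, 63.7 and 1198 CPM with empagliflozin and 25.4, 91.9 and 365 CPM with the combination. The 2 highest Myl4 values came from the same 2 libraries as the highest Myl7 values, and the lowest of all also came from a study B vehicle heart. Sln, the calcium pump inhibitor, had lowest, median and highest levels of 1.13, 6.40 and 24.1 CPM in lean hearts, 1.39, 8.90 and 49.2 CPM in obese vehicle hearts of study A and 0.853, 6.05 and 20.8 CPM with BT2. Its levels in study B were 2.32, 24.2 and 367 CPM with vehicle, 4.39, 10.9 and 376 CPM with empagliflozin and 6.27, 17.0 and 84.1 CPM with the combination. Every pair of groups overlapped for both genes.

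Bmp10, the secreted ligand, reached the furthest above its median and had no count in 10 of the 60 hearts, 9 of them in study A. Lowest, median and highest Bmp10 levels were 0, 0.311 and 11.3 CPM in lean hearts, 0, 2.93 and 44.4 CPM in obese vehicle hearts of study A and 0, 1.82 and 20.4 CPM with BT2. In study B they were 0.273, 15.8 and 378 CPM with vehicle, 2.35, 10.3 and 362 CPM with empagliflozin and 0, 12.2 and 68.2 CPM with the combination. Its highest value was 84.3 times its median, against 71.2 times for Sbk3 and 27.8 times for Myl7. The standard deviation relative to the mean was 2.41 for Bmp10 and 2.55 for Sbk3. All group ranges overlapped; the zero counts fell in 1 lean, 4 study A vehicle, 4 BT2 and 1 combination heart.

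Sbk2 and Sbk3, the kinases, had few counts per library. Sbk2 had lowest, median and highest levels of 1.13, 3.15 and 9.45 CPM in lean hearts, 0.543, 1.80 and 11.3 CPM in obese vehicle hearts of study A, 0.233, 1.90 and 4.29 CPM with BT2, 0.682, 7.15 and 79.4 CPM with study B vehicle, 1.74, 5.12 and 113 CPM with empagliflozin and 1.96, 4.74 and 20.2 CPM with the combination. Sbk3 had lowest, median and highest levels of 0.0848, 0.319 and 2.05 CPM in lean hearts, 0, 0.280 and 5.24 CPM in obese vehicle hearts of study A, 0, 0.301 and 1.16 CPM with BT2, 0.136, 1.42 and 23.4 CPM with study B vehicle, 0.494, 1.03 and 50.2 CPM with empagliflozin and 0, 1.39 and 6.31 CPM with the combination. Both kinases had their highest value in the same empagliflozin heart, and 5 hearts had no Sbk3 count. Study A medians of Sbk3 were near the level that a count of 0 allows.

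**Figure D1:**
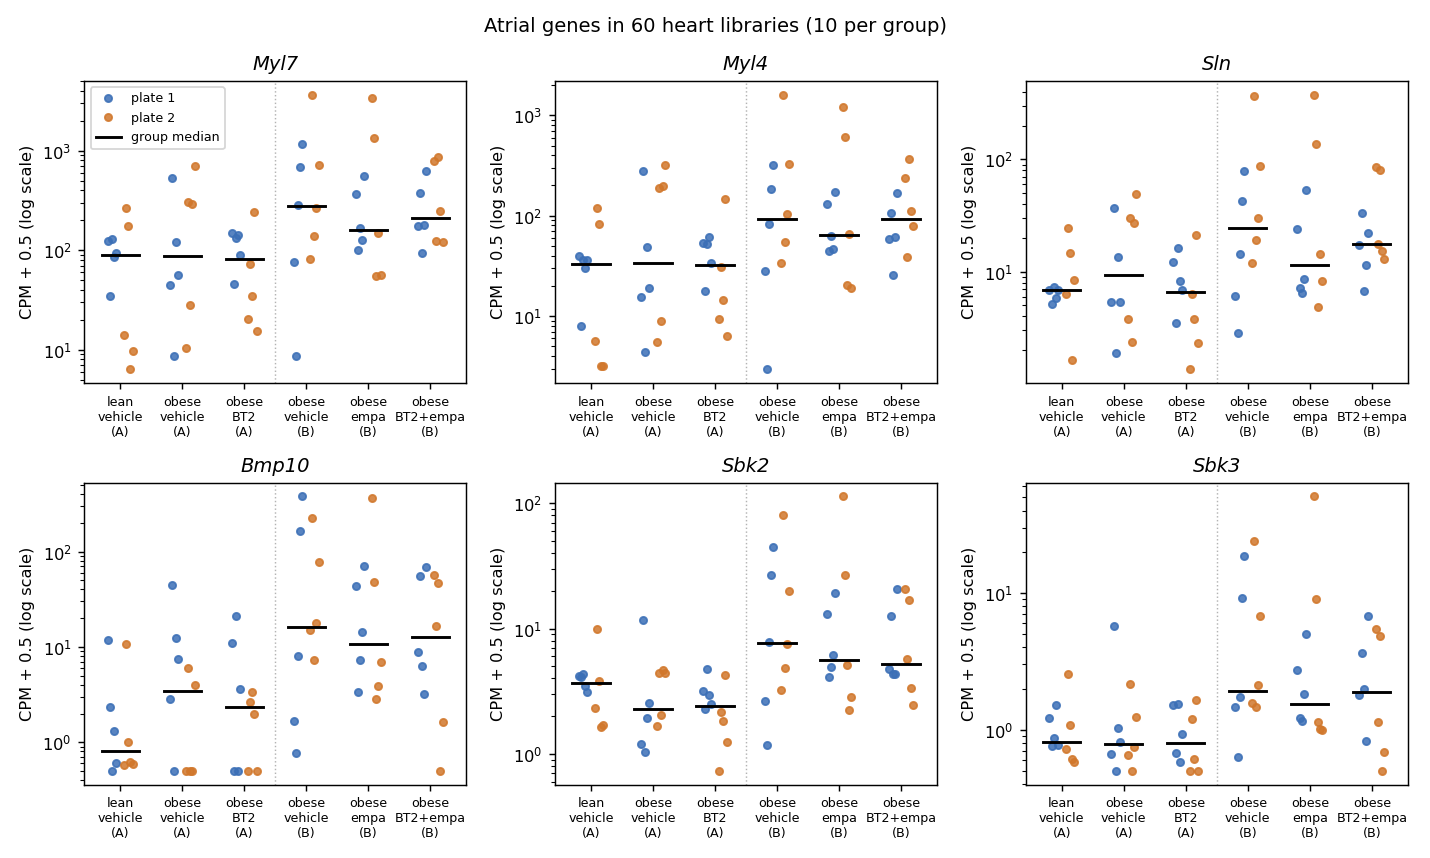
CPM + 0.5 of each atrial gene on a logarithmic axis, 1 point per heart library (blue plate 1, orange plate 2), by group of 10 libraries in study A or B, with a bar at the group median; a library without a count lies at 0.5, and "empa" stands for empagliflozin. Every pair of groups overlapped for every gene, and Myl7 reached 3644 CPM in a study B vehicle heart and 3393 CPM in an empagliflozin heart.

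The experiments shared these genes unevenly. Study B, which supplied 30 of the 60 hearts, held 81.1% of the summed CPM of Myl7, 77.4% of Myl4, 82.7% of Sln, 92.4% of Bmp10, 84.8% of Sbk2 and 88.9% of Sbk3. Without the 2 hearts highest in Myl7 these shares were 71.5%, 65.7%, 71.8%, 88.9%, 76.9% and 80.7%. The median of Myl7 was 87.3 CPM in study A and 212 CPM in study B, and that of Bmp10 was 1.14 CPM in study A and 14.1 CPM in study B. Study B had the higher median within each plate too: for Myl7 it was 178 against 92.9 CPM in plate 1 and 247 against 34.4 CPM in plate 2, and for Bmp10 it was 8.41 against 2.35 CPM in plate 1 and 16.0 against 0.113 CPM in plate 2. Obese vehicle hearts were part of both experiments, and their Myl7 medians were 87.4 and 275 CPM; the study A range, 8.21 to 694 CPM, lay inside that of study B, 8.19 to 3644 CPM. Experiment and treatment are partly tied, since lean rats and BT2 alone were only in study A and empagliflozin only in study B. Most of the variation lay within groups: the 6 groups took 22.7% of the variance of log2 Myl7 and 33.2% of that of Bmp10, and the standard deviation within groups was 1.90 and 2.34 log2 units.

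The high values of the 6 genes fell in the same hearts. In 14 libraries at least 1 member exceeded 5 times its median, and in 5 libraries all 6 members did, each of the 5 in study B. Study B vehicle replicate 7 held Myl7 at 3644, Myl4 at 1601, Sln at 367, Bmp10 at 222, Sbk2 at 79.4 and Sbk3 at 23.4 CPM. Empagliflozin replicate 6 held Myl7 at 3393, Myl4 at 1198, Sln at 376, Bmp10 at 362, Sbk2 at 113 and Sbk3 at 50.2 CPM. The other 3 were empagliflozin replicate 7 (Myl7 1331 CPM) and study B vehicle replicates 5 (Myl7 1180 CPM) and 10 (Myl7 722 CPM). Another 2 hearts, combination replicates 6 and 8, had 5 members over that level. In study A only obese vehicle replicates 2 and 10 exceeded it for any member, replicate 2 for 3 genes and replicate 10 for 2 genes. In the remaining 46 hearts, 28 of study A and 18 of study B, no member did.

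**Figure D2:**
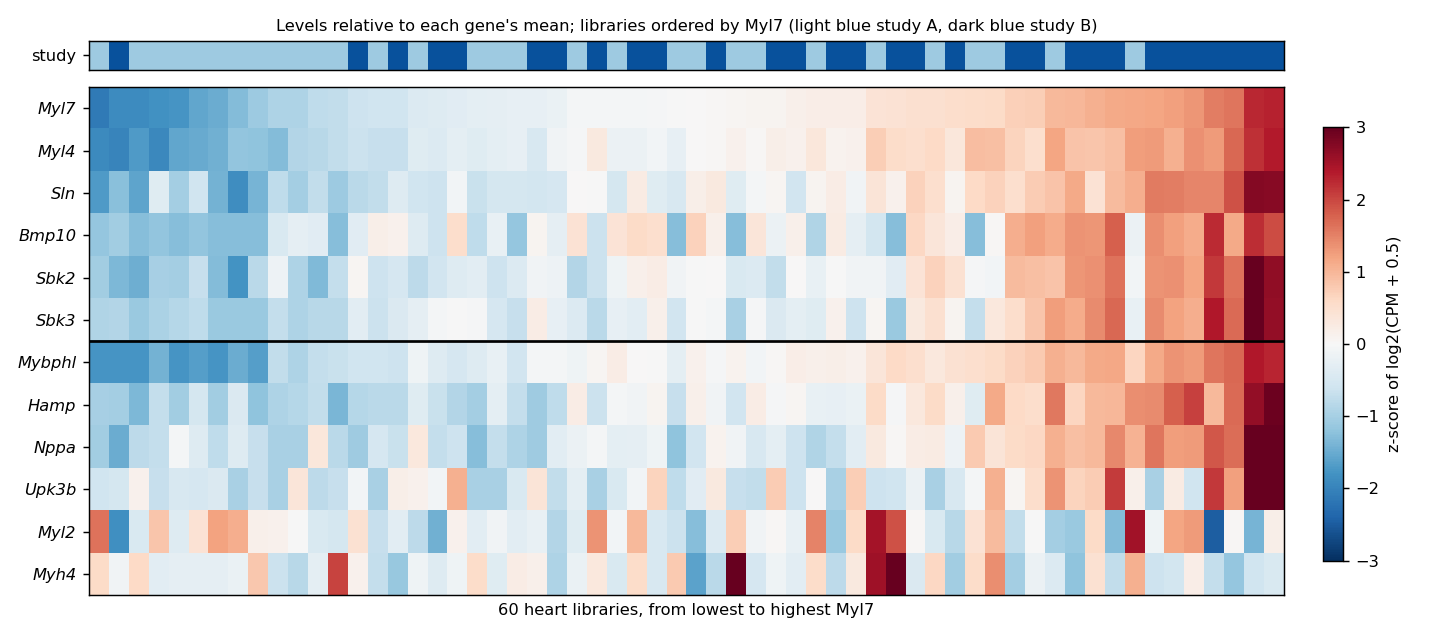
Levels of the 6 atrial genes (above the line) and of 6 companion genes (below it) as z-scores of log2(CPM + 0.5), with the 60 hearts in columns from lowest to highest Myl7 and study A in light and study B in dark blue. All 6 atrial genes, Mybphl, Hamp and Nppa were highest at the right, while Myl2 and Myh4 did not follow that order. Both of the last columns are study B hearts, with Myl7 at 3393 and 3644 CPM. Upk3b, a marker of epicardium and mesothelium, had its 2 highest values in those hearts, at 7.46 and 4.06 CPM.

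Over the 60 hearts the Spearman correlation of member pairs ran from 0.66 (Myl4 with Bmp10) to 0.98 (Myl7 with Myl4), with a median of 0.83 over the pairs. The points are single libraries, so both genes of a pair share that library's depth and composition, and no test is given. With each group's mean removed the pairs ran from 0.62 to 0.98. In study A alone they ran from 0.47 to 0.99 and in study B alone from 0.76 to 0.97, and the lower bounds were 0.76 in plate 1 and 0.68 in plate 2. The mean z-score of the 6 genes had a correlation of -0.11 with the total counts of a library, -0.15 with the number of genes detected and -0.00 with its mitochondrial share. Slopes on Myl7, on log scales, were taken only in the 30 hearts with Myl7 at or above its median. They were 0.96 for Myl4, 1.04 for Sln, 1.02 for Sbk2, 1.10 for Sbk3 and 1.55 for Bmp10. In those hearts the ratio of Myl4 to Myl7 ran from 0.269 to 0.683, with medians of 0.337 in plate 1 and 0.448 in plate 2.

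**Figure D3:**
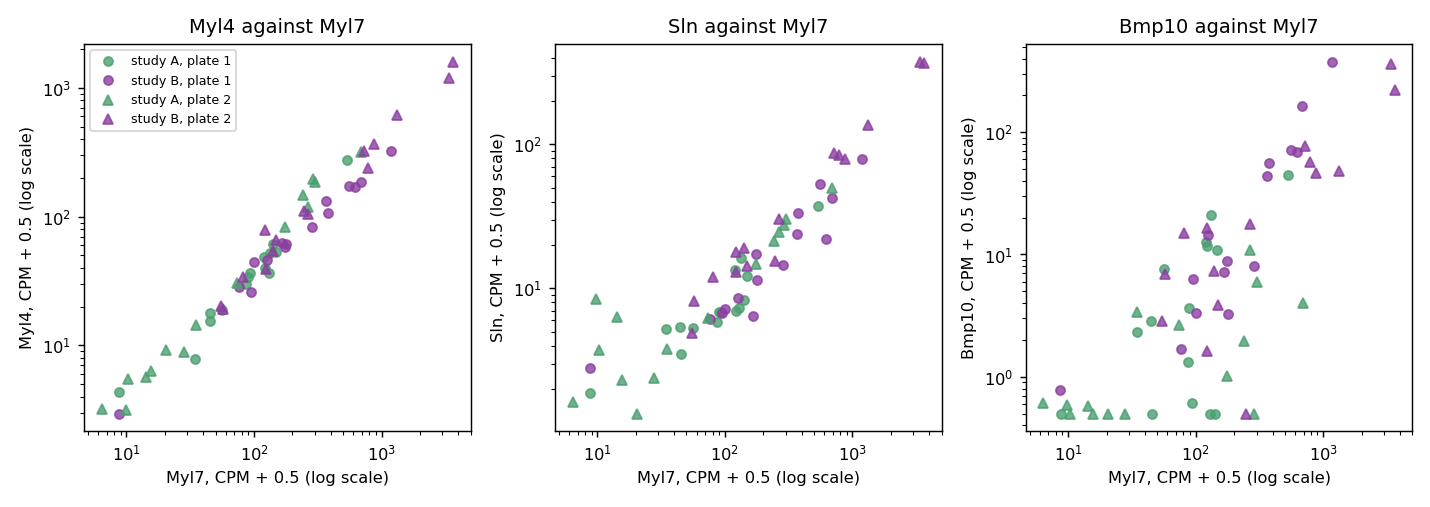
CPM + 0.5 of Myl4, Sln and Bmp10 against that of Myl7 in 60 heart libraries, both axes logarithmic, with study A in green, study B in purple, plate 1 as circles and plate 2 as triangles. Myl4 followed Myl7 with a Spearman correlation of 0.98 and Bmp10 with one of 0.71, and several hearts lie far below the others for Bmp10.

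Over the 60 hearts Bmp10 was the member that followed Myl7 least, with a correlation of 0.71. Its correlation with Myl7 was 0.50 in study A, where 9 of 30 hearts had no Bmp10 count, and 0.82 in study B. In study B Sbk3 correlated with Myl7 at 0.81, and Bmp10 correlated with Sbk2 at 0.91 and with Sbk3 at 0.92. Among the 30 hearts with Myl7 at or above its median, 8 had Bmp10 under 4 CPM (a level chosen after the values were seen). Of these 8, 6 were in plate 2 and 5 in study A, although most of the 30 were study B hearts. Study A vehicle replicate 9 had Myl7 at 288 CPM and combination replicate 9 had Myl7 at 247 CPM, and neither had a Bmp10 count. Of the 8 hearts, 3 held much skeletal Myh4: combination replicate 9 was at 1052, BT2 replicate 4 at 734 and BT2 replicate 9 at 267 CPM, against a median of 6.96 CPM over all hearts. The part of that tissue in the low Bmp10 was not tested. At the other end, study B vehicle replicate 5 had 0.320 Bmp10 counts per Myl7 count. Sbk2 and Sbk3 correlated with each other at 0.88, and Sbk3 with Bmp10 also at 0.88.

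By the same measure, the genes outside the 6 that were most like them were Mybphl (Spearman correlation 0.95 with the mean z-score of the 6), an unnamed gene ENSRNOG00000070502 (0.91), Hamp (0.90), Atp1b4 (0.89) and Rab15 (0.88). Cldn1, Rxfp1, ENSRNOG00000065163, Gng2, Vsnl1, Nppa and Slc24a4 followed with 0.84 down to 0.76. Mybphl encodes a myosin-binding protein of atrial and conduction muscle, Hamp the iron hormone hepcidin, Rxfp1 the relaxin receptor, and Nppa the atrial natriuretic peptide, which stressed ventricles also make. Over 12236 other genes the median correlation was 0.02, with 5th and 95th percentiles of -0.24 and 0.32, and 88 genes (0.719%) reached 0.5. Of the 12 named, 12 stayed among the 12 most alike with TMM scaling, 10 with group means removed, 9 in study B alone and 7 in study A alone. The 6 genes at the opposite end were Nwd2 (-0.62), Fnip2 (-0.57), Card9 and Mcc (both -0.56), Dipk2b (-0.55) and Nav3 (-0.52), and with group means removed these lay between -0.47 and -0.14.

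Other atrial genes divided. Of 17 atrial genes that are not members, 4 reached a correlation of 0.5, and 13 were above 0. Sinoatrial and conduction genes had a median of 0.20 and 2 of 6 at 0.5 or more. Ventricular genes (0 of 9 at 0.5, median -0.11), genes of all heart muscle (0 of 11, median -0.07), genes of the BMP9 and BMP10 pathway (0 of 15, median -0.10) and partners of Sln at the calcium pump (0 of 8, median 0.11) did not reach it. Skeletal muscle markers had a median of -0.23, with 0 of 6 above 0. Markers of some other cell types did reach it: Fmod (0.63) and Plvap (0.51), 2 of 6 valve and endocardial markers, the mesothelial marker Msln (0.61), 1 of 2, and the fat hormone gene Adipoq (0.57), 1 of 3 adipocyte markers. Their part in the pattern was not tested.

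**Figure D4:**
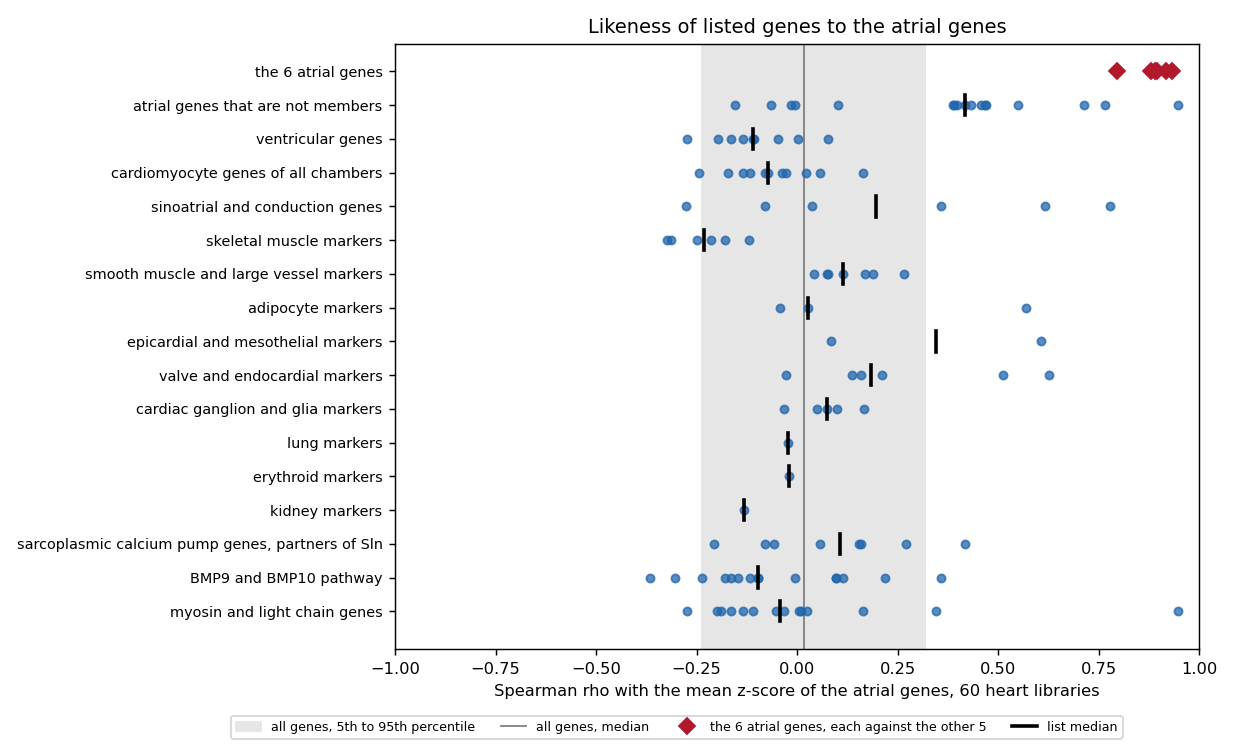
Spearman correlation of each listed gene with the mean z-score of the 6 atrial genes over 60 hearts, by gene list, with list medians as bars and the middle 90% of all genes in grey; Mybphl is in the atrial list and in the myosin list. The atrial list has a median of 0.42, and the ventricular list a median of -0.11.

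The 2 hearts with the highest Myl7 differed from the others in more than the 6 genes. Nppa was at 10707 and 9551 CPM in them, against a median of 692 CPM, and 7 of 18 other atrial genes had both of their highest values there. Cacna1g and Vsnl1 of the sinoatrial list did too. So did 5 of 6 markers of epicardium and mesothelium, the sheet that covers the heart: their summed level was 58.0 and 65.0 CPM against a median of 15.3 CPM, and the highest heart was at 25.6 CPM in the lean, 27.8 CPM in the study A vehicle, 20.2 CPM in the BT2 and 21.5 CPM in the combination group. The summed markers of smooth muscle and large vessels were highest of all hearts in study B vehicle replicate 7, at 1985 CPM. Empagliflozin replicate 6 ranked 9th, at 1430 CPM (median of all hearts 1229 CPM). Des made up most of these sums, at 1263 and 1233 CPM against a median of 1052 CPM. In vehicle replicate 7 other markers of this list lay further above their medians. Myh11 was at 229 CPM (median 66.9 CPM), Acta2 at 206 (median 38.5), Tagln at 169 (median 28.7) and Cnn1 at 23.1 (median 1.69 CPM). In empagliflozin replicate 6 Acta2 was at 46.3, Tagln at 33.5 and Cnn1 at 2.76 CPM. Fat markers were high in both: Adipoq was at 12.4 and 15.4 CPM against a median of 0.107 CPM, Plin1 at 12.8 and 13.0 CPM against a median of 0, and Cidec at 3.40 and 4.98 CPM against a median of 0.0649 CPM. The summed adipocyte list, 673 and 388 CPM, ranked 8th and 37th of the 60 hearts. Fabp4 made up most of that sum, at 626 and 332 CPM. The valve and endocardial list ranked 2nd and 3rd (60.4 and 53.4 CPM, median 28.9 CPM), and Fmod and Plvap had both of their highest values there. The 9 ventricular genes summed to 23212 and 23073 CPM in these 2 hearts, next to the median of 23718 CPM. The 11 genes of all heart muscle summed to 54993 and 61061 CPM (median 45948 CPM) and ranked 11th and 3rd. Among them Myh6 was at 11798 and 14290 CPM (median 6821 CPM). The calcium pump list ranked 41st and 1st, and the BMP9 and BMP10 pathway list 1st and 11th. Markers of cardiac ganglia and glia ranked 1st and 16th (45.1 and 22.2 CPM, median 18.6 CPM). The part of these other cells and tissues in the levels of the 6 genes was not tested.

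Between repeat runs of a library the median ratio was near 1 for each member but Sln. In 22 hearts with 2 runs of at least 1000000 counts each, Myl7 in the second run over the first had a median log2 ratio of -0.06 and a range of -0.30 to 0.01, and Myl4 a median of 0.02. The medians of Bmp10, Sbk2 and Sbk3 were 0, -0.05 and 0, with single libraries of the low-count Sbk3 from -0.75 to 0.83. Ratios were of CPM + 0.5, which draws low-count genes toward 0. Several libraries had no Bmp10 count in either run, which sets their log2 ratio at 0. Sln had a median log2 ratio of 0.55 and a range of -0.44 to 1.32, and was higher in the second run in 16 of 22 libraries. All 5 study B and 9 of 10 study A libraries of plate 1 were higher, against 0 of 3 and 2 of 4 in plate 2. The runs correlated at 0.86 or more for each member. These runs are of 1 library each, so they describe the sequencing and not the animals.

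The kidney libraries of the same series gave the level in a tissue without atrial muscle. Median kidney CPM was 0 for Myl7, Sln, Bmp10, Sbk2 and Sbk3 and 0.334 for Myl4, and 45, 52, 58, 42 and 57 of the 60 kidney libraries had no count of the former 5. Bmp10 reached at most 0.136 CPM in kidney. A single kidney library, lean replicate 8, had Myl7 at 2.84, Myl4 at 3.74, Sln at 5.92 and Sbk2 at 3.55 CPM with no Bmp10 count, which allows up to 0.0547 CPM. The same library held the heart and skeletal muscle genes Myh7 at 2580 and Myh4 at 8289 CPM, and their part in these levels was not tested. The overall highest Myl4 in kidney, 43.9 CPM, was in a very shallow library, and in the 58 kidney libraries with more than 1000000 counts the highest was 3.74 CPM.

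Obese and lean vehicle hearts of study A were compared to ask what differs with obesity in this strain. None of the 5 atrial genes that passed the count filter passed the test, and the estimates for 4 of them lay above 0. The log2 difference of obese from lean, with its standard error, was 1.27 ± 0.75 for Myl7, 1.68 ± 0.78 for Myl4, 1.18 ± 0.53 for Sln, 1.20 ± 1.01 for Bmp10 and -0.02 ± 0.46 for Sbk2 (n = 10 per group, edgeR's quasi-likelihood test with the plate as covariate). The edgeR adjusted p-values (Benjamini-Hochberg over all genes) were 0.396, 0.260, 0.241, 0.581 and 0.992. Unadjusted edgeR p-values were 0.0434 for Myl4 and 0.0370 for Sln, and DESeq2 also called 0 members. Over all genes 5.36% of 12694 passed. Sbk3 had too few counts to be tested in study A. Leaving out obese vehicle replicate 2 brought Myl7 to 0.66, Myl4 to 0.92 and Bmp10 to 0.45, and leaving out lean replicate 7 brought Bmp10 to 2.62, none of them passing the test.

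Among the other atrial genes in that comparison, 2 of 17 tested passed, Nppa and the secreted protein gene Dkk3, both higher in obese hearts. Nppa rose by 1.29 ± 0.27 log2 units with an edgeR adjusted p of 0.00423, and Dkk3 by 0.32 ± 0.09 with an edgeR adjusted p of 0.0327. Mybphl, the gene most like the 6, had a log2 difference of 1.21 ± 0.78 and an edgeR adjusted p of 0.444. The list median was 0.22 against 0.00 over all genes tested. Markers of other cell type lists moved in the same comparison. Fabp4 and Cfd of the adipocyte list (2 of 2 tested) rose by 0.57 and 0.74 log2 units. Adipoq, Plin1 and Cidec of that list had too few counts to be tested. The hemoglobin gene Hba-a2 (1 of 1) rose by 1.86, and Postn, 1 of 6 valve and endocardial markers, by 2.04 log2 units. Of 6 sinoatrial and conduction genes tested, Smoc2 and Cacna1g passed, 1 higher and 1 lower in obese hearts. The summed erythroid level was 1727 to 7394 CPM in obese and 469 to 1401 CPM in lean hearts, the adipocyte level 377 to 1096 and 312 to 719 CPM, and the valve level 26.3 to 49.8 and 23.9 to 43.3 CPM. The adipocyte level was almost all Fabp4, with a median of 415 CPM over all hearts against 0.107 CPM for Adipoq. The part of these lists in the differences of atrial genes was not tested. Of the general heart muscle genes 1 of 11 passed: Myh6, the fast alpha myosin heavy chain that rodent atria and ventricles share, fell by 0.74 ± 0.13 with an edgeR adjusted p of 0.000964. Of the 9 ventricular genes 0 passed, and Myh7, the slow beta heavy chain, had a log2 difference of 0.57 ± 0.18 with an edgeR adjusted p of 0.0600. Of the genes of opposite pattern, Card9 and Fnip2 were lower in obese hearts.

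BT2 was compared with vehicle in obese hearts of study A to ask what BT2 changes. The log2 difference was -1.07 ± 0.69 for Myl7, -1.23 ± 0.73 for Myl4, -1.03 ± 0.61 for Sln, -0.66 ± 0.86 for Bmp10 and -0.48 ± 0.47 for Sbk2, and 0 of 5 members passed, against 0.0558% of 12545 genes. The edgeR adjusted p-values lay between 0.771 and 0.956, no member was under 0.05 unadjusted, and DESeq2 called 0 members. The 95% interval for Myl7 ran from -2.50 to 0.35, so neither no difference nor a large decrease lay outside it. Without study A vehicle replicate 2 the Myl7 value was -0.51 and that of Bmp10 was 0.10. The other atrial genes had 0 of 17 passing and a list median of -0.17 (all genes 0.01). Of the 6 skeletal muscle markers 0 passed, with a list median of 2.22 and a summed level of 3.46 to 1212 CPM in BT2 and 8.29 to 121 CPM in vehicle hearts, and their part in the atrial estimates was not tested.

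Empagliflozin was compared with vehicle in obese hearts of study B, where both groups hold one of the 2 hearts highest in Myl7. The log2 difference was -0.28 ± 0.76 for Myl7, -0.21 ± 0.74 for Myl4, -0.15 ± 0.72 for Sln, -0.75 ± 0.98 for Bmp10, -0.11 ± 0.70 for Sbk2 and -0.14 ± 0.81 for Sbk3. None of the 6 passed, with edgeR adjusted p-values from 0.873 to 0.983, against 0.107% of 12167 genes. No member was under 0.05 unadjusted, and DESeq2 called 0. The direction turned on single hearts: for Myl7 the value was 0.33 without vehicle replicate 7 and -0.88 without empagliflozin replicate 6, and without both, an alternative chosen after seeing the data, it was -0.25 with Bmp10 at -1.46. The 17 other atrial genes had a list median of -0.05 and 0 passing.

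Combined BT2 and empagliflozin hearts were compared with vehicle hearts of study B. All 6 estimates lay below 0, and they were -0.81 ± 0.64 for Myl7, -0.86 ± 0.62 for Myl4, -0.91 ± 0.57 for Sln, -1.66 ± 0.86 for Bmp10, -1.01 ± 0.59 for Sbk2 and -1.41 ± 0.69 for Sbk3. None passed, with edgeR adjusted p-values from 0.265 to 0.548, against 5.13% of 12117 genes tested. In this fit no member was under 0.05 unadjusted, and DESeq2 called 0. Members under 0.05 by the unadjusted edgeR test numbered 2 with no count filter and 4 with the original run alone, which holds near-empty libraries. Leaving out vehicle replicate 1, for example, gave 2, and none of these passed after adjustment. The members share their libraries, so 6 estimates of 1 sign are not 6 separate results. Without vehicle replicate 7 the Myl7 value was -0.13.

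In the same comparison 4 of 9 ventricular genes rose: Myl2 by 0.39, Myl3 by 0.54, Myh7 by 0.50 and Fhl2 by 0.32 log2 units. Genes of all heart muscle rose too, 4 of 11: the troponin genes Tnni3 by 0.44, Tnnc1 by 0.40 and Tnnt2 by 0.37, and Mybpc3, a thick filament protein, by 0.25. The list medians were 0.30 and 0.12, against 0.00 over all genes tested. The ventricular list median was 0.26 for empagliflozin against vehicle and 0.04 for the combination against empagliflozin, each with 0 of 9 passing. In the combination against vehicle, Hcn4 (1 of 6 sinoatrial and conduction genes) and Eln (1 of 7 smooth muscle and large vessel markers) fell. The edgeR adjusted p-values of Myl2 and Myl3, the ventricular counterparts of Myl7 and Myl4, were 0.000674 and 0.000418. The summed level of the ventricular list was 20244 to 36696 CPM in combination hearts and 16443 to 24927 CPM in vehicle hearts. Of the skeletal muscle markers 3 of 4 tested rose, with a summed level of 7.39 to 1886 CPM (median 23.5 CPM) in combination and 6.43 to 21.4 CPM in vehicle hearts. Combination replicate 9 held the top of that range: Myh4, a fast skeletal myosin, was at 1052 CPM there and at 3.33 to 20.7 CPM in the other 9 hearts. Without it 1 of 4 skeletal markers passed, while 4 of 9 ventricular genes and 4 of 11 genes of all heart muscle passed as before. The other atrial genes had 0 of 17 passing and a list median of -0.25, and Nppa had a log2 difference of -0.88 ± 0.48 with an edgeR adjusted p of 0.333.

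**Figure D5:**
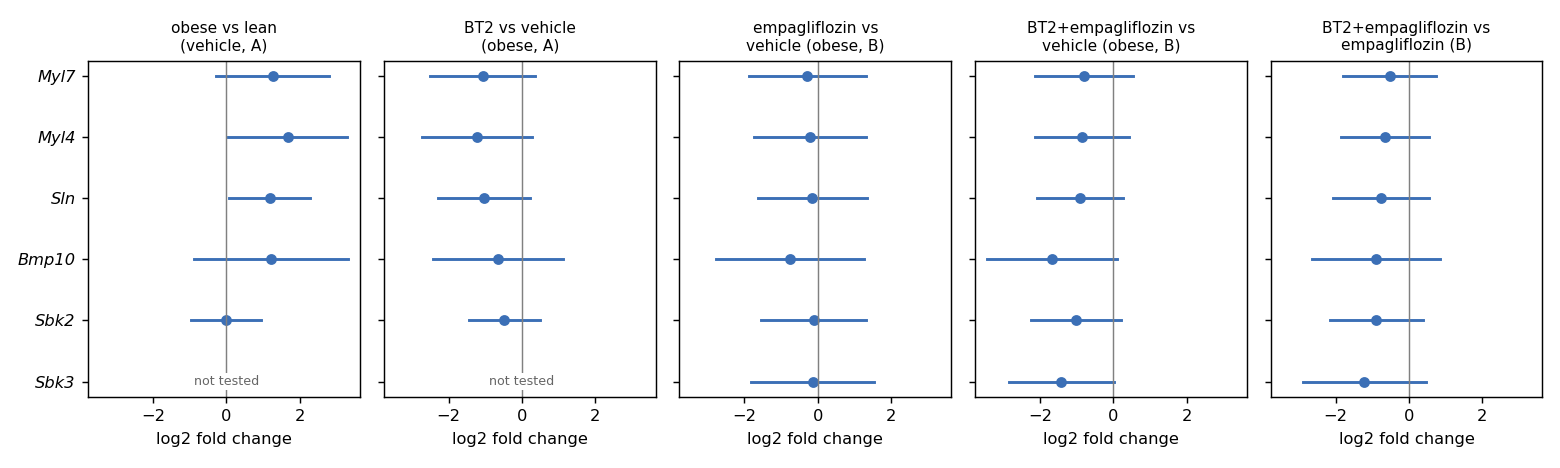
Log2 fold change (points) with its 95% interval (lines) from edgeR for each atrial gene in the 5 comparisons, 1 panel each, 10 hearts per group, with A and B naming the study; Sbk3 was not tested in study A. The intervals are wide, such as -2.50 to 0.35 for Myl7 with BT2, and no member passed the adjusted threshold in any panel.

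The combination was also set against empagliflozin alone, which asks what BT2 adds. The log2 differences ran from -0.53 (Myl7) to -1.22 (Sbk3), and 0 of 6 passed with edgeR adjusted p-values from 0.760 to 0.888, against 0.0249% of 12049 genes. Members under 0.05 unadjusted, and members called by DESeq2, numbered 0. Without empagliflozin replicate 6 the Myl7 value was 0.09 and that of Bmp10 was 0.22. Whether the BT2 effect differed with and without empagliflozin was tested directly as a difference of effects, which also spans the 2 experiments. The estimates were 0.34 ± 0.95 for Myl7, 0.42 ± 0.97 for Myl4, 0.01 ± 0.89 for Sln, -0.60 ± 1.30 for Bmp10, -0.59 ± 0.85 for Sbk2 and -0.74 ± 1.25 for Sbk3. No member and no gene of 12864 passed in edgeR (0%), 453 genes were under 0.05 unadjusted, and DESeq2 called 0.

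Partners of the members were followed as lists. The receptors and signal proteins of the BMP9 and BMP10 pathway, among them Acvrl1 (the receptor ALK1), Bmpr2 and Eng, had 0 genes passing in each comparison. In obese against lean hearts the log2 difference was -0.05 ± 0.09 for Acvrl1, -0.13 ± 0.11 for Bmpr2 and 0.06 ± 0.11 for Eng. The calcium pump gene Atp2a2, on whose product sarcolipin acts, had a log2 difference of -0.34 ± 0.17 in obese hearts with an edgeR adjusted p of 0.295. In combination against vehicle hearts Atp2a2 was at 0.02 ± 0.09, and Hrc, a calcium-binding protein of the same compartment, rose by 0.30 ± 0.05 with an edgeR adjusted p of 0.00149. The heart actin gene Actc1 was at 0.07 ± 0.13 in obese against lean hearts and, unlike the troponin genes, did not pass in the combination (0.05 ± 0.06). In the authors' deposited tables of the same 4 vehicle comparisons, adjusted p-values of the 6 members lay between 0.250 and 0.999.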

How the data were processed

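RNA sequencing of 120 heart and kidney libraries was deposited as gene count tables (30560 genes). Per the submitters' processing notes the authors worked on the build mRatBN7.2 with the aligner STAR 2.7.3a, the quantifier Salmon 1.5.2, the quality tools FastQC 0.11.9, MultiQC 1.11 and Picard, and the test DESeq2 1.34.0; their settings were not given in those sources. The deposited values are estimated counts, 6.85% of them not whole. The authors' deposited comparison tables give library-scaled counts (a signal), log2 fold changes and p-values, of which only adjusted p-values are printed. The tables' 163 columns that match a sample's labels were used, and 82 columns were not used. Runs of 1 library (43 libraries had 2) were summed and rounded.

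CPM were computed on summed counts. Tests used edgeR 4.0.16 in R 4.3.3 (filterByExpr, TMM, trended dispersion, quasi-likelihood F test, plate as covariate, the 2 groups compared only), with Benjamini-Hochberg adjustment over all genes and a threshold of 0.05, and were tested on simulated data. DESeq2 1.42.0 was an alternative, along with other scaling, filtering, plate, run, block and leave-one-out settings. Likeness is the Spearman correlation of log2(CPM + 0.5) with the mean z-score of the 6 genes, over genes with a mean of at least 1 CPM, computed in Python 3.11.15 with pandas 2.3.3, scipy 1.17.1 and numpy 2.4.6. Named genes are the 6 members, the 12 most and the 6 least alike genes, listed genes with extreme likeness or a call, and 8 fixed heart genes. The members and the 16 lists were chosen with earlier results of these data known. Of 146 list genes, 11 were not found under their symbol and were not analysed here (among them Pln). Replicates are separate rats by the series' description. The depth of the hearts, 6735300 to 23575900 counts, limits Sbk3 and Bmp10 most.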

Additional observations from a re-analysis of the deposited data

Results flagged for a closer look

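In each group of 10 hearts the highest and lowest value of each member was compared with its nearest neighbour, relative to the group's whole range (Dixon's criterion at the 95% level). For normally distributed values of genes not chosen on them, chance would set apart about 5% of groups, or about 1 in 20. The criterion was applied to CPM and not to logarithms, and these CPM were skewed, with each group mean above the group median. The members were also selected on these same CPM. For both reasons that rate does not apply, and the criterion serves only to describe which hearts stand apart. Of 36 groups, 16 held a library set apart, in 6 hearts in all, and the 6 genes are not separate results since they vary together. Each value set apart was the highest of its group. Study B vehicle replicate 7 was apart for Myl7 (3644 CPM), Myl4 (1601 CPM) and Sln (367 CPM). Empagliflozin replicate 6 was apart for Myl7 (3393 CPM), Myl4 (1198 CPM), Sln (376 CPM), Bmp10 (362 CPM), Sbk2 (113 CPM) and Sbk3 (50.2 CPM). In study A, obese vehicle replicate 2 was apart for Bmp10 (44.4 CPM), Sbk2 (11.3 CPM) and Sbk3 (5.24 CPM), and lean replicate 7 was apart for Sbk2 (9.45 CPM) and Sbk3 (2.05 CPM). BT2 replicate 9 was apart for Myl4 (146 CPM), and BT2 replicate 3 for Bmp10 (20.4 CPM).

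A signal outside the heart comparisons was in the kidney of lean replicate 8, which held Myl7 at 2.84, Myl4 at 3.74, Sln at 5.92 and Sbk2 at 3.55 CPM. The kidney medians of these genes were 0 CPM, except for Myl4 (0.334 CPM).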

How the results depend on the processing

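Refits gave 851 values of member log2 differences, 1 per member, comparison and setting. Values of several members come from the same refit and are not separate checks. Of the 851 values 805 kept their direction and 46 turned it (29 of 560 that left out 1 heart and 17 of 291 others). The threshold was passed by 0 of them, with a lowest edgeR adjusted p of 0.119. Values that turned sign were, for obese against lean Sbk2, 0.0203 with the DESeq2 test and 0.15 with the original run, and for BT2 Sbk2, 0.0246 in plate 1. For empagliflozin in plate 2 they were Myl7 0.0581, Sln 0.0717, Bmp10 0.29, Sbk2 0.38 and Sbk3 0.85, and for Sbk3 also 0.11 with no plate term and 0.0442 with all 6 groups fitted. For the combination against empagliflozin they were Myl7 0.0544 with the replicate block and 0.0381 in plate 1, and Sbk3 0.17 in plate 1. For the difference of BT2 effects they were Sln -0.000602 with no filter and -0.0186 in plate 1, Bmp10 0.52 and Sbk3 0.90 in plate 1. Leaving out 1 heart gave obese against lean Sbk2 -0.61 to 0.39, BT2 Bmp10 -1.24 to 0.10 and Sbk2 -0.66 to 0.0826, empagliflozin Myl7 -0.88 to 0.33, Myl4 -0.69 to 0.45, Sln -0.80 to 0.44, Sbk2 -0.92 to 0.38 and Sbk3 -1.28 to 0.40, and combination against empagliflozin Myl7 -0.76 to 0.0893 and Bmp10 -1.20 to 0.22. The extremes came from obese vehicle replicate 2, lean replicate 7 and BT2 replicates 3 and 9 in study A, and from vehicle replicates 5 and 7, empagliflozin replicate 6 and combination replicate 5 in study B.

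Counts of all genes passing moved more. Obese against lean (680) gave 372 with no plate term, 49 in plate 2 and 1068 with all groups fitted. BT2 (7) gave 95 with DESeq2, 0 with no plate term, with the replicate block and in plate 2, 4 in plate 1 and 12 with all groups. Empagliflozin (13) gave 69 with DESeq2, 4 with no plate term and with the replicate block, 1236 in plate 1, 0 in plate 2, 7 with the original run and 33 without the 2 hearts highest in Myl7. The combination (622) gave 141 with no plate term, 258 with the replicate block, 77 in plate 1, 6 in plate 2 and 276 with the original run. The original run of study B vehicle replicate 2 had 1986 counts, and that of combination replicate 1 had 5585 counts. These near-empty libraries were kept in the fits of the original run. The combination against empagliflozin (3) gave 65 with DESeq2, 0 with the replicate block, 25 in plate 1, 0 in plate 2 and 17 with all groups. The difference of BT2 effects gave 1 in plate 1. Leaving out 1 heart gave 0 to 23 for BT2, 4 to 26 for empagliflozin, 402 to 756 for the combination and 2 to 7 for the combination against empagliflozin. Of the 12 most alike genes 7 stayed in study A alone. Replicate numbers did not pair the hearts: with group and plate means removed, 0 to 5 of 10 pairs correlated over 0.1. The cause of these moves was not tested. Depth limits Sbk3, which was not tested in study A.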
